A study of Homo sapiens with 9 samples.

Results

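The baseline transcriptome described here is that of OVCA433 cells carrying the control vector, the untargeted arm of an shRNA experiment on MPZL3. OVCA433 is an established human line labelled as ovarian serous adenocarcinoma. The members are the 3 control vector libraries, replicates A, B and C, of 9 libraries in the series. The other 6 libraries came from the same line carrying shRNA#1 or shRNA#3 against MPZL3, with 3 libraries each. All 9 libraries share the OVCA433 background, labelled WT, and the methods give an empty vector as the control of this line, so the control cells had been transduced and are not untouched parental cells. Every value below belongs to 1 line in culture, which has no other cell type beside it. The libraries were labelled as replicates, and no label tied a replicate to a culture or a day.

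Poly(A) RNA was sequenced without strand information, so reads of a gene and of an antisense neighbour could not be told apart. Gene totals were 20306064, 19944659 and 21299819 counts in replicates A, B and C. A count of 3, used as the floor of detection, corresponded to 0.148 CPM (counts per 1000000 counts of the library) in replicate A and 0.141 CPM in replicate C. MPZL3, the gene that the hairpins target, lay at 15.9, 22.1 and 20.7 CPM in the control libraries. It lay between 0.999 and 1.97 CPM in the 6 hairpin libraries, so the 2 sets did not overlap. The labels of control against hairpin held for this gene, which cannot tell shRNA#1 from shRNA#3 because their ranges overlapped. CPM is a gene's share of the counts, which grows with its length, and rankings by CPM below are rankings of that share. Levels per transcript are given as TPM (counts divided by the gene length in the table and scaled to a sum of 1000000 per library).

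Serous carcinomas of the ovary and fallopian tube are epithelial tumours of Müllerian origin. They usually keep PAX8, a transcription factor of the Müllerian epithelium, and the epithelial adhesion molecules E-cadherin (CDH1) and EpCAM, and many shed CA125, the antigen carried by the mucin MUC16. Cyclin D1 (CCND1) drives passage from G1 into S phase with its kinases CDK4 and CDK6. In a cultured carcinoma line, housekeeping genes of translation, cytoskeleton and metabolism are among the most abundant in polyadenylated RNA. The genes that identify the lineage are a minor share of that RNA.

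Of the 5 genes supplied as markers of these cells, CCND1, EPCAM and CDH1 were abundant, PAX8 was of intermediate level and MUC16 was close to absent. CCND1 (chr11:69641087-69654474, plus strand) reached 927, 901 and 865 TPM in replicates A, B and C, a mean of 898 ± 30.9 (SD, n = 3). EPCAM (chr2:47345158-47387601, plus strand) reached 650, 613 and 539 TPM, a mean of 600.4 ± 56.3 (SD, n = 3). CDH1 (chr16:68737225-68835548, plus strand) followed at 181, 164 and 158 TPM, a mean of 167 ± 11.8 (SD, n = 3). The ranges of these genes did not overlap, so their order was the same in every library.

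PAX8 (chr2:113215997-113278950, minus strand) lay at 61.8, 46.4 and 40.2 TPM, a mean of 49.5 ± 11.1 (SD, n = 3), with replicate A highest. MUC16 (chr19:8848844-8981342, minus strand) gave 69, 42 and 86 counts over a gene length of 43830 bases, or 0.303, 0.175 and 0.339 TPM. On the CPM scale MUC16 stood at 3.18 ± 0.984 (SD, n = 3), above the floor in every library, but per length it was under 1 TPM throughout. CDH1 and EPCAM mark epithelia in general and PAX8 the Müllerian lineage. The CA125 transcript was present only in traces, and most other Müllerian factors, given below, were not expressed. All 5 markers varied between the libraries beyond counting error (chi-square test of the 3 counts against the library totals, Benjamini-Hochberg adjusted over all genes tested), which held for 52.1% of the genes tested. That share grew with the level. It was 36.0% between 3 and 10 CPM, the range of MUC16, 84.3% between 100 and 300 CPM and 98.9% at 1000 CPM or more. The smallest excess was that of CCND1, with a coefficient of variation of 2.52% beyond counting error, and the largest that of MUC16, with 28.4%.

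**Figure D1:**
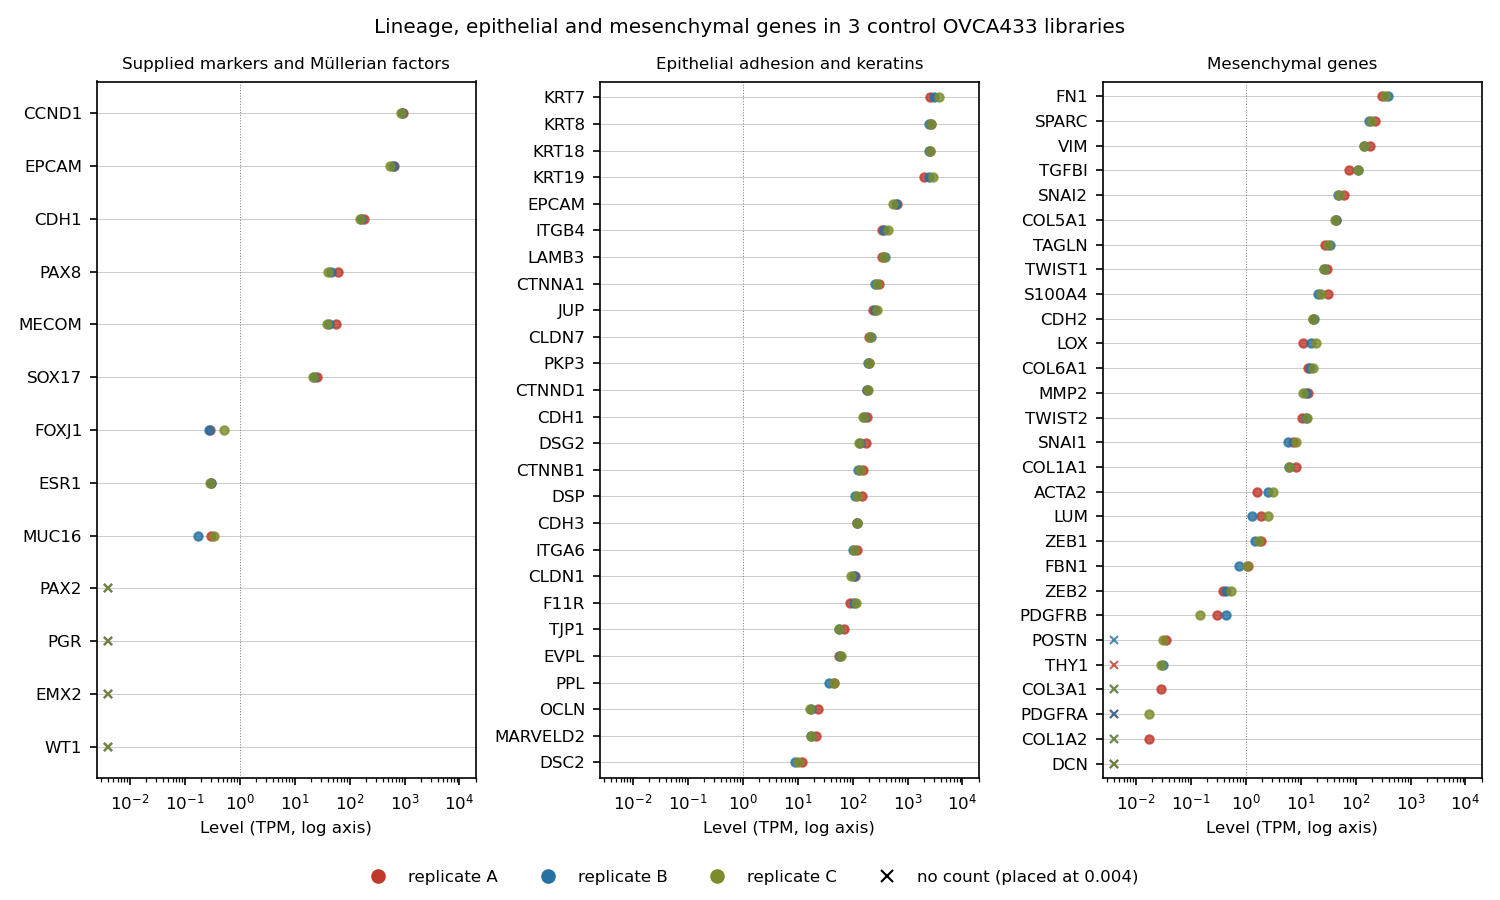
Levels of single genes in the 3 control libraries, in TPM on a log axis, with 1 point per library and crosses for libraries without a count; the dotted line marks 1 TPM. The supplied markers and the other Müllerian factors separate into genes between 20 and 1000 TPM (CCND1 to SOX17) and genes under 1 TPM (FOXJ1 to WT1), all 26 epithelial genes lie above 1 TPM, and the mesenchymal genes run from FN1 down to DCN, which has no count.

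A total of 13128 of the 58676 genes in the table were expressed, meaning at least 1 CPM in each of the 3 libraries, and 31498 genes had no count in any of them. Protein-coding genes made up 90.8% of the expressed genes and took 98.6% ± 0.0536 (SD, n = 3) of the counts. Of 19821 protein-coding genes, 11918 were expressed (60.1%). The median expressed protein-coding gene lay at 23.8 TPM, with quartiles at 9.15 and 58.3 TPM, and 1710 protein-coding genes reached 100 TPM and 96 reached 1000 TPM in the mean.

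Among the other gene types, 305 of 7803 lincRNA genes (3.91%), 338 of 5644 antisense genes (5.99%) and 85 of 563 genes of the type processed transcript (15.1%) were expressed. LINC00657 was the most abundant lincRNA gene at 405, 366 and 390 TPM. TUG1 led the antisense genes at 66.0 ± 11.6 TPM (SD, n = 3), and GAS5, a host gene of small nucleolar RNAs, led the processed transcripts at 146 ± 3.88 TPM (SD, n = 3). LincRNA and antisense genes together with processed transcripts held under 1% of the counts, by type 0.388%, 0.253% and 0.134%.

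Of the pseudogenes labelled transcribed, 141 of 734 unprocessed (19.2%) and 34 of 440 processed genes (7.73%) were expressed. Without that label, 45 of 2693 unprocessed (1.67%) and 109 of 10274 processed pseudogenes (1.06%) were expressed. The leading members of these types were close copies of abundant genes. SBDSP1 lay at 124 ± 13.0 TPM, RPL9P9 at 230 TPM and PPIAP22, a copy of the cyclophilin A gene, at 747 ± 70.2 TPM (SD, n = 3). MTATP6P1 on chromosome 1, a nuclear copy of a stretch of the mitochondrial genome, was listed at 1382 ± 194 TPM. Reads of such copies can come from the parent gene, and these levels are uncertain for that reason. Classes of short RNA that lack a poly(A) tail were almost absent, with 2 of 1881 miRNA genes, 1 of 943 snoRNA genes and 0 of 1900 snRNA genes expressed.

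The leaders of the short classes ranged from 2.13 to 54.0 CPM in the mean. SNORD17 gave 5.64 CPM, MIR621 4.57 CPM, RNA5SP283 2.13 CPM and the mitochondrial tRNA gene MT-TP 36.1 CPM. A signal recognition particle gene named Metazoa_SRP led the type misc_RNA at 54.0 CPM. In the remaining types the genes with the most counts were AC092066.1 (22.3 CPM), SNHG3 (40.6 CPM), RP11-166D19.1 (25.4 CPM), ZNF271P (25.9 CPM), NIPBL-DT (14.0 CPM), PKD1L2 (3.92 CPM) and the immunoglobulin segment IGLV5-52 (1.28 CPM). IGLV5-52 rested on 30, 21 and 28 counts.

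**Figure D2:**
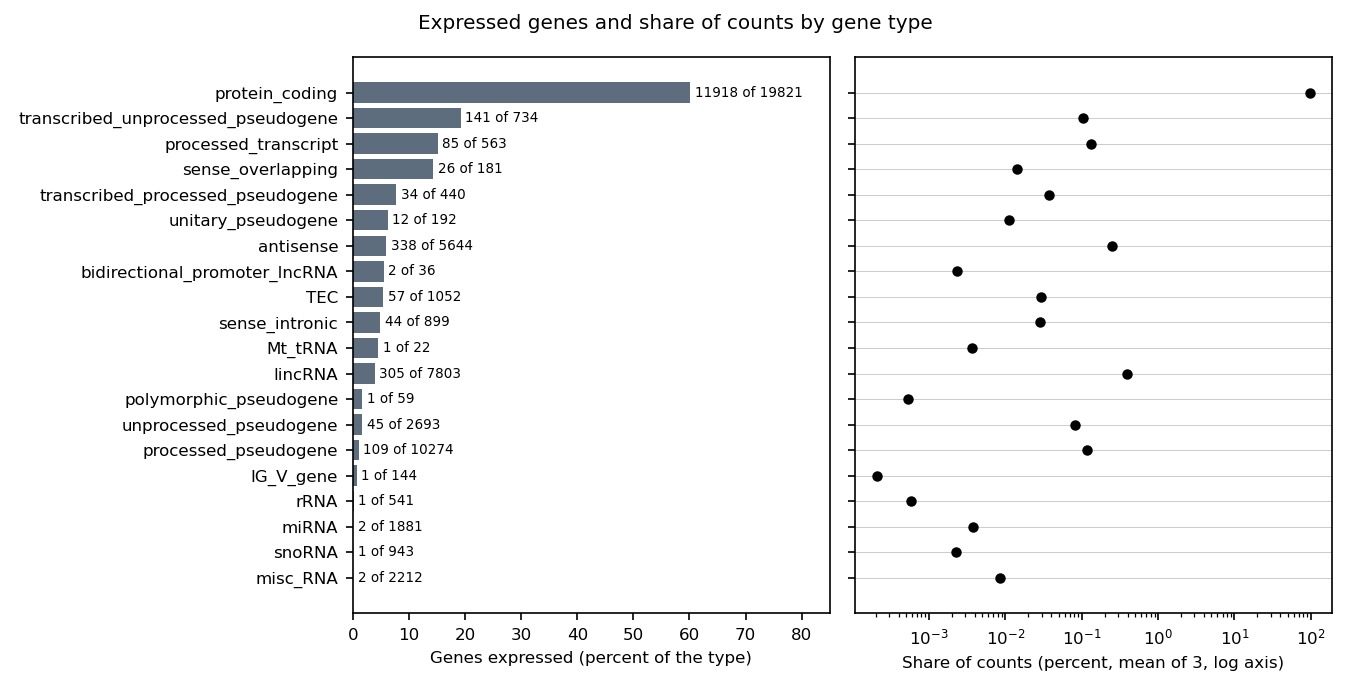
Left, the percent of the genes of each type with at least 1 CPM in all 3 control libraries, with the numbers behind each bar; right, the mean share of counts of each type in percent on a log axis. Protein-coding genes stand apart at 60.1% expressed and 98.6% of counts, and each other type holds under 1% of the counts.

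The most abundant transcripts were those of translation, the mitochondrial respiratory chain, the actin cytoskeleton and simple-epithelial keratins. By share of counts the list was led by EEF1A1, the elongation factor that delivers aminoacyl-tRNA to the ribosome, with 9419, 10389 and 12097 CPM. MT-CO1, the catalytic subunit of cytochrome c oxidase, followed with 7256, 11246 and 10417 CPM. ACTB (β-actin) held 6406 ± 304 CPM, THBS1 (the secreted matrix glycoprotein thrombospondin 1) 5044 ± 273 CPM and KRT8 (keratin 8) 4824 ± 161 CPM (SD, n = 3). EEF1A1 and MT-CO1 changed places between the libraries: EEF1A1 was ahead in replicates A and C, MT-CO1 in replicate B.

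The rest of the first 10 by CPM were MT-ND4, ACTG1 (γ-actin), MT-CO2, the chaperone HSP90AA1 and KRT7 (keratin 7), between 4265 and 3429 CPM in the mean. HSP90AA1 was highest in replicate A (4120 CPM) and lowest in replicate C (3281 CPM), whereas KRT7 ran the other way, from 2660 CPM in replicate A to 4160 CPM in replicate C. The 10 most abundant genes of a library held 5.04% (95% Wilson interval 5.03 to 5.05), 5.90% (5.89 to 5.91) and 6.03% (6.02 to 6.04) of its counts in replicates A, B and C. The 100 most abundant held 19.2% ± 1.04 (SD, n = 3), and between 914 and 996 genes were needed to reach 50% of the counts. These intervals cover counting error only.

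Per length, mitochondrially encoded mRNAs took 7 of the first 10 places among protein-coding genes. MT-CO1 led with 18374, 26596 and 24849 TPM, followed by MT-CO2 (21789 ± 4255 TPM), MT-CO3 (15919 ± 1861 TPM) and MT-ATP6 (14749 ± 2229 TPM, SD, n = 3), a subunit of the ATP synthase. MT-ND4, MT-ND3 and MT-CYB, subunits of complexes I and III, lay between 11518 and 8485 TPM in the mean. All genes of the mitochondrial chromosome together took 2.75%, 4.01% and 3.78% of counts in replicates A, B and C, so replicate A was low. By TPM their share was 13.6% ± 2.06 (SD, n = 3), because these transcripts are short.

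Among nuclear genes, FTL, the ferritin light chain that stores iron, was highest per length with 6750, 7048 and 8503 TPM. ACTB stood at 7357 ± 196 TPM and EEF1A1 at 6678 ± 702 TPM, and the ranges of FTL, ACTB and EEF1A1 overlapped, so their order is not settled by these libraries. TMSB10 (thymosin β10, which binds actin monomers) gave 5395 ± 122 TPM, ACTG1 5077 ± 303 TPM, S100A11 (a calcium-binding protein) 4313 ± 366 TPM and YBX1 (an RNA-binding protein) 4251 ± 191 TPM (SD, n = 3). KRT81, a type II keratin best known from hair, stood among them at 3412, 4838 and 5102 TPM. Its close paralogs KRT86 and KRT83 lay at 14.1 and 0.729 TPM, and reads may have been divided between such copies.

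**Figure D3:**
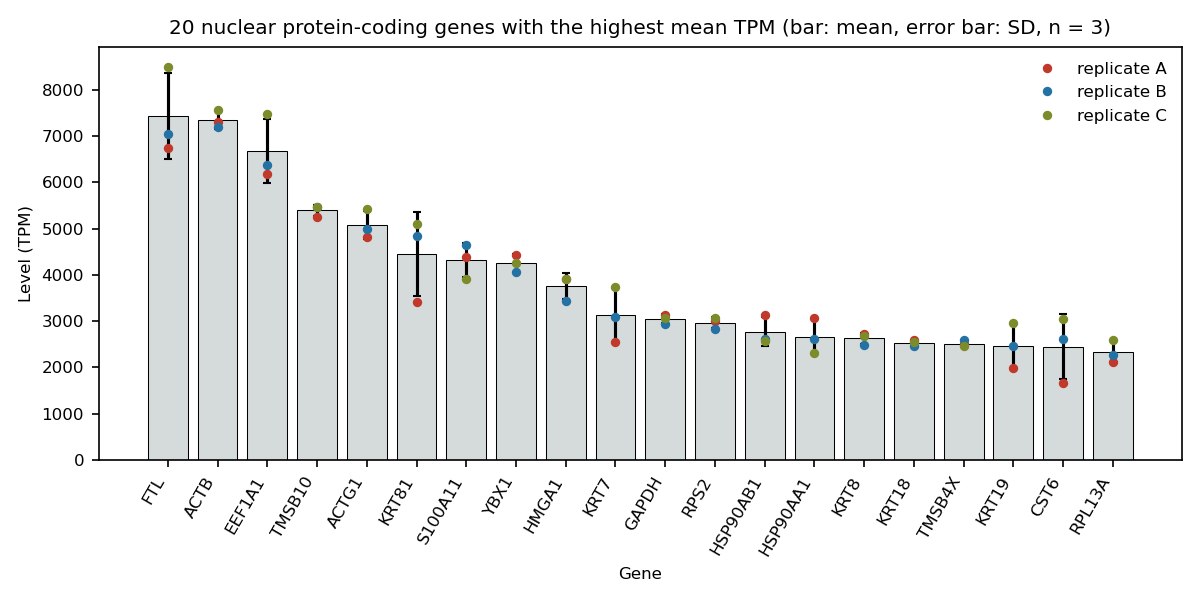
The 20 nuclear protein-coding genes with the highest mean TPM, as mean (bar), SD (error bar) and the value of each of the 3 libraries (points). FTL, ACTB and EEF1A1 stand highest with overlapping ranges, and KRT81, KRT7, KRT19 and CST6 are lowest in replicate A.

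The promoter windows of genes that stand for the levels above are shown here as RefSeq gives them for GRCh38.p14, from 250 bases before to 50 bases after the annotated start, 5′ to 3′ on the strand of the gene. Capitals mark CG dinucleotides, the sites of DNA methylation that are dense in CpG islands. EEF1A1, FTL and TMSB10 stand for the highest levels, HMGA1 for the most abundant oncogene, PAX8 for the lineage, ID1 and CXCL1 for the largest spread between libraries, and PTPRC, the leukocyte antigen CD45, for a gene near the floor.
EEF1A1 (chr6:73520983-73521282, minus strand): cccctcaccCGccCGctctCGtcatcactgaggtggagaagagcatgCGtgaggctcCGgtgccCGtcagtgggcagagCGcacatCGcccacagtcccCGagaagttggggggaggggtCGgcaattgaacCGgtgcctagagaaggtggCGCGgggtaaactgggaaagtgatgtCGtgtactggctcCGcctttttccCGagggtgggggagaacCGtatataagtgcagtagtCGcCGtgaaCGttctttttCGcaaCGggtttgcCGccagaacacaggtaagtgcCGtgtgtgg
FTL (chr19:48965059-48965358, plus strand): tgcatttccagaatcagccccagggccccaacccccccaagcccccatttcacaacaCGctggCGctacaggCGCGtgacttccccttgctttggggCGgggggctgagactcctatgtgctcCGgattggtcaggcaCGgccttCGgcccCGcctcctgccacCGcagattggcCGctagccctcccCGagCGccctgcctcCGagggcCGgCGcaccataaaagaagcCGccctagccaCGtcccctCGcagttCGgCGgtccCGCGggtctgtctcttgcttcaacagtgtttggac
TMSB10 (chr2:84905406-84905705, plus strand): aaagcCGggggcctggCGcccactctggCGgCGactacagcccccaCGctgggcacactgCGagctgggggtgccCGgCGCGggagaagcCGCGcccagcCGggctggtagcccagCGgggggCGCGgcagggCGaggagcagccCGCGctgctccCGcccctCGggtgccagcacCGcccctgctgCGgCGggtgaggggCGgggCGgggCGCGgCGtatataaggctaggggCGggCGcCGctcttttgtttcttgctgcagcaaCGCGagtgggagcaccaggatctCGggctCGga
HMGA1 (chr6:34236623-34236922, plus strand, the first of 2 windows): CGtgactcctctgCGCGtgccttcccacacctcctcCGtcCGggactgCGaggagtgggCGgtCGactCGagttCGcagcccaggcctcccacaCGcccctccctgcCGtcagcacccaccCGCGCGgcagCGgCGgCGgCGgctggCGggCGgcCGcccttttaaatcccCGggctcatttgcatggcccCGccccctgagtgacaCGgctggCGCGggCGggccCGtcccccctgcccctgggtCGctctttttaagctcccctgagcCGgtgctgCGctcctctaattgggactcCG
PAX8 (chr2:113278872-113279171, minus strand): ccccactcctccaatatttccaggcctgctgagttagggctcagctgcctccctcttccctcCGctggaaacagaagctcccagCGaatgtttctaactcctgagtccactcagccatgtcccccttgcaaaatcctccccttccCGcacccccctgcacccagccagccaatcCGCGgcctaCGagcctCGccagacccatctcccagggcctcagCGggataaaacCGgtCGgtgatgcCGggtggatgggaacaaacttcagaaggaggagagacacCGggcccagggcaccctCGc
ID1 (chr20:31605039-31605338, plus strand): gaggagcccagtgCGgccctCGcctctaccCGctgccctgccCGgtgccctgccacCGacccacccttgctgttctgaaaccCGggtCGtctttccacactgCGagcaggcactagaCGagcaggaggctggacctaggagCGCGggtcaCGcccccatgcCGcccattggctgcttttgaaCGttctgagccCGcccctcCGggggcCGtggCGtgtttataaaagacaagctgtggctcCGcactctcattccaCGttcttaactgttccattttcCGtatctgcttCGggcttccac
CXCL1 (chr4:73869143-73869442, plus strand): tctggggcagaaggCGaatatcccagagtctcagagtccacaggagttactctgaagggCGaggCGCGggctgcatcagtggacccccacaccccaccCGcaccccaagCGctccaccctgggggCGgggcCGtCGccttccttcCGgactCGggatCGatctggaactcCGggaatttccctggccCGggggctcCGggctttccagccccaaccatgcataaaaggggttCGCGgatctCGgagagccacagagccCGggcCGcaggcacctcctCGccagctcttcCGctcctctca
PTPRC (chr1:198638790-198639089, plus strand): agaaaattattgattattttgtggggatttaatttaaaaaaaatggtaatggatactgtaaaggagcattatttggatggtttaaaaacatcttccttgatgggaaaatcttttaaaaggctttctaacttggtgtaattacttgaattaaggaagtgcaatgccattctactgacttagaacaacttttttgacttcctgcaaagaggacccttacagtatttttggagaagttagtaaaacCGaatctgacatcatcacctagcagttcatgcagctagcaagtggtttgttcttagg

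The windows of EEF1A1, FTL, TMSB10 and HMGA1 held 24, 23, 35 and 33 CG dinucleotides, a ratio of observed to expected CG between 0.722 and 0.891. The ID1 and CXCL1 windows, each with 22, reached 0.766 and 0.674. PAX8 with 13 reached 0.483, and PTPRC, with 1 CG and 33.7% G plus C, reached 0.122. The letters TATAAA occurred on the gene strand only in the ID1 window, 31 bases before the start, given as position -31 in the numbering from the start.

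Across the table, RefSeq windows were matched for 15328 of 19773 protein-coding genes outside the Y chromosome (77.5%). Only the classes between 1 and 50 TPM (81.9% matched) and over 50 TPM (83.2% matched) had values for at least 80% of their genes. A comparison with the genes of no count (67.9% matched) or under 1 TPM (72.3% matched) is void, because too many of their genes have no window. In the class over 50 TPM, 89.3% of 2855 windows had an observed to expected CG ratio of 0.6 or more, against 81.6% of 7127 windows in the class from 1 to 50 TPM when the first window of each gene was used. With all windows of these genes the shares were 83.1% and 73.7%, beside 48.9% of all 35116 windows of the RefSeq table, which includes genes of every type. By the first window, TATAAA on either strand was found in 5.25% (95% Wilson interval 4.49 to 6.13) of the class over 50 TPM. The class from 1 to 50 TPM had 5.39% (4.89 to 5.94), a difference within the intervals. By all windows the shares were, in the same order, 5.50% (4.84 to 6.24) and 6.39% (5.94 to 6.88). These 2 intervals overlap, but 6.39% lies outside the first. In the whole RefSeq table the share was 11.5% of all windows. A match or its absence describes these letters in this window only.

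Of the 11 Müllerian and serous lineage factors, 4 were expressed (36.4%, against 60.1% of all protein-coding genes). Beside PAX8, these were MECOM, a zinc finger oncoprotein often gained in serous carcinoma, with 55.9, 42.6 and 39.2 TPM, SOX17, a partner of PAX8, with 25.4, 22.4 and 21.2 TPM, and ESR1, the oestrogen receptor α, whose 21, 22 and 23 counts amounted to only 0.294 TPM. WT1, EMX2, PGR (the progesterone receptor) and PAX2 had no count in any library, which allows up to 0.148 CPM in replicate A. In all, 6 of the 11 members stayed at 3 counts or fewer in every library. PAX8 and MECOM were both highest in replicate A, and SOX17 did not differ between the libraries beyond counting error (chi-square test, adjusted p = 0.437).

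The list of ovarian carcinoma antigens had 22 of 27 members expressed (81.5%, beside 60.1% of all protein-coding genes). At 100 TPM or more were 13 of the 27, beside 8.63% of all protein-coding genes. The median was 96.5 TPM, beside 5.93 TPM for all protein-coding genes. The secreted serine protease KLK5 gave 1305, 1574 and 1647 TPM, and CLDN6, a claudin of fetal epithelia, 1330, 1435 and 1424 TPM. Replicate A was lowest for both of these, and for 18 of the 22 expressed members, beside 36.7% of all expressed genes.

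Mesothelin (MSLN) and HE4 (WFDC2), secreted or surface antigens in clinical use, lay at 96.5 ± 16.0 and 282 ± 52.1 TPM (SD, n = 3). MUC1 was at 5.67 ± 1.53 TPM. The folate receptor gene FOLR1 was at 10, 8 and 6 counts, and SLC34A2, a phosphate transporter used as an antibody target, had no count. PROM1 and CDH6 stayed at 3 counts or fewer.

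All 26 genes of the adhesion and keratin list were expressed, beside 60.1% of all protein-coding genes. Of the 26, 20 were at 100 TPM or more, beside 8.63% of all protein-coding genes, and the median was 157 TPM. This list was chosen with earlier results of these data known. Of the whole families, 9 of 55 keratin genes and 8 of 24 claudin genes were expressed. KRT7, KRT8, KRT18 and KRT19, the keratins of simple epithelia, stood at 3122 ± 601, 2624 ± 128, 2533 ± 64.7 and 2470 ± 497 TPM (SD, n = 3). KRT7 and KRT19 were lowest in replicate A and highest in replicate C, with coefficients of variation beyond counting error of 21.9% and 22.8%, beside 3.32% for KRT8. Exons of KRT18 and KRT8 overlap for 16.3% and 7.63% of their lengths, so some of their reads could not be assigned to either.

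Of the epithelial regulators, 17 of 18 were expressed, beside 60.1% of all protein-coding genes. MAL2 (a vesicle transport protein) lay at 429 ± 101 TPM and SPINT2 (a protease inhibitor) at 369 ± 17.7 TPM (SD, n = 3). ST14 (matriptase, which SPINT2 inhibits) lay at 350 ± 5.13 TPM (SD, n = 3). TP63, a factor of basal and squamous epithelia, had no count. The splicing factor ESRP1 and the transcription factor GRHL2, both keepers of the epithelial state, lay at 133 ± 15.5 and 69.0 ± 5.78 TPM. MAL2 was the exception in its spread, at 505, 468 and 314 TPM.

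Mesenchymal genes were detected side by side with these. Of 29 members, 22 were expressed (75.9%, beside 60.1% of all protein-coding genes), with a median of 12.0 TPM. At 100 TPM or more were 4 of the 29, beside 8.63% of all protein-coding genes. FN1 (fibronectin) gave 344 ± 43.4 TPM, SPARC 199 ± 27.2 TPM and VIM (vimentin) 154 ± 22.5 TPM (SD, n = 3). Vimentin RNA was thus close in level to that of CDH1, with 180, 142 and 140 TPM beside 181, 164 and 158. Exons of VIM overlap those of other genes for 24.4% of their length, beside 5.62% for CDH1, so this closeness is uncertain.

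Of the transcription factors of epithelial-mesenchymal transition, SNAI2 stood at 53.3 ± 7.12 TPM, TWIST1 at 27.6 ± 1.87 TPM, SNAI1 at 7.04 ± 1.12 TPM, ZEB1 at 1.70 ± 0.216 TPM and ZEB2 at 0.456 ± 0.085 TPM (SD, n = 3). CDH2 (N-cadherin) lay at 17.0 ± 0.686 TPM. COL1A2 and COL3A1, collagens of fibroblasts, each had a single count in replicate A, with no count of DCN (decorin) and 1 count each of POSTN in replicates A and C. Of the other fibrillar collagens of this list, COL5A1 gave 44.5, 43.3 and 41.9 TPM and COL1A1 8.11, 6.26 and 6.21 TPM.

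Blood, immune and intestinal markers were at or near the floor, whereas some mesothelial and single other markers were expressed. None of 15 blood and immune markers was expressed, beside 60.1% of all protein-coding genes. Their summed level was between 1.38 and 2.23 TPM. CSF1R, CD14 and PTPRC led that list with at most 29 counts, and HBB, HBA1 and FCGR3A had none. No member of 12 intestinal and mucinous markers was expressed either (summed level 0.110 to 0.517 TPM), with MUC5AC, CDX2 and TFF1 at no count. LGALS4, REG4 and CDH17 were the highest of them, each at 5 counts or fewer.

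Endothelial markers showed 1 expressed member of 8, the receptor TIE1, at 9.47 ± 2.30 TPM (SD, n = 3). PECAM1, CDH5 and CLDN5 were at 3 counts or fewer, and VWF (10, 5 and 9 counts) and KDR (10, 3 and 5 counts) were little above that. ESAM gave 16, 26 and 31 counts and TEK 13, 8 and 6 counts. Mesothelial markers showed 4 expressed members of 6, beside 60.1% of all protein-coding genes. They were led by UPK3B with 82.3, 64.6 and 94.6 TPM, LRRN4 with 24.5, 11.3 and 8.66 TPM and PDPN with 12.8 ± 0.690 TPM. CALB2, the marker used most often for mesothelium, gave 7, 1 and 1 counts.

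Ciliated cell markers were near 0 except for TUBB4B (2037 ± 117 TPM), a tubulin used broadly and not in cilia alone, and CAPS (13.9 ± 5.82 TPM, SD, n = 3). FOXJ1, the master factor of ciliation, stayed at 4, 4 and 8 counts, PIFO at 0.785 TPM, and DNAH9 had no count. In the hepatocyte, neural and gonadal list 3 of 16 were expressed, beside 60.1% of all protein-coding genes. They were AMH with 186, 270 and 244 counts (16.4 ± 2.63 TPM), INHA (3.47 ± 1.01 TPM) and GFAP (3.04 ± 0.704 TPM, SD, n = 3). The exons of GFAP overlap those of other genes for 18.4% of their length and its length in the table is 50.3% of the annotated one. ALB stood at 2, 0 and 0 counts, and OLIG2, FOXL2 and DDX4 had none.

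The cell cycle list was expressed in full, 20 of 20 members, beside 60.1% of all protein-coding genes, with a median of 148 TPM. PCNA, the clamp of DNA replication, gave 1126, 893 and 882 TPM, a range that overlapped that of CCND1, so the order of these leading members is not settled. The mitotic cyclin CCNB1 followed with 402, 347 and 317 TPM. CCND1 exceeded the other D cyclins by far, with CCND3 at 77.0 ± 7.15 TPM and CCND2 at 2.15 ± 0.538 TPM. Its kinase CDK4 lay at 158 ± 18.4 TPM (SD, n = 3). Exons of CDK4 overlap those of another gene for 43.2% of their length, so its level is uncertain. CDK6 gave 97.1, 64.8 and 63.6 TPM, with replicate A highest.

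Of the other members at 100 TPM or more, the mitotic kinase AURKA stood at 287 ± 26.5 TPM, CCNA2 at 246 ± 32.9 TPM, TOP2A at 222 ± 34.3 TPM, E2F1 at 212 ± 30.6 TPM and FOXM1 at 201 ± 34.4 TPM (SD, n = 3). MCM2 (168 ± 30.3 TPM), the proliferation marker MKI67 (137 ± 37.9 TPM) and CDK1 (127 TPM in the mean) completed them. CCNE1, amplified in a subset of serous carcinomas, was at 47.9 ± 5.81 TPM. Replicate A was the highest library in CPM for 14 of the 20 members and replicate C the lowest for 18, whereas over all expressed genes A was highest in 42.5% and C lowest in 39.2%. All 20 varied beyond counting error, beside 52.1% of all genes tested and 84.3% of genes between 100 and 300 CPM, the range that holds the median member.

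Among 54 oncogenes, 51 were expressed (94.4%, beside 60.1% of all protein-coding genes), with a median of 51.1 TPM. HMGA1, which encodes an architectural chromatin protein, stood apart with 3914, 3430 and 3915 TPM, or 2333 ± 144 CPM (SD, n = 3), and ranked among the first 20 nuclear protein-coding genes. CCND1 was the next, then the receptor tyrosine kinase MET with 462, 365 and 361 TPM. The related HMGA2 was at 48.0 ± 3.22 TPM.

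The remaining oncogenes at 100 TPM or more were the survival factors MCL1 (306 ± 27.7 TPM) and BCL2L1 (277 ± 8.55 TPM), the kinase gene AURKA, the small GTPase RAB25 (282 ± 24.4 TPM) and FOXM1. HRAS lay at 175 ± 8.17 TPM, JUN at 172 ± 15.7 TPM, NRAS at 162 ± 25.9 TPM and CDK4 at 158 ± 18.4 TPM (SD, n = 3). As for CDK4, the level of BCL2L1 is uncertain, since its exons overlap those of another gene for 43.0% of their length. The β-catenin gene CTNNB1 was at 138 ± 13.8 TPM, but its table length is 55.5% of the annotated exon length, and whether it reaches 100 TPM depends on the length used. MYC lay at 128 ± 3.53 TPM, EGFR at 127 ± 19.2 TPM and YAP1 at 123 ± 7.51 TPM. The ranges of MYC, EGFR and YAP1 overlapped.

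Within gene families the levels were unequal. MYCN at 51.1 ± 7.48 TPM and MYCL at 2.76 ± 0.368 TPM lay under MYC, and ERBB2 (55.7 ± 4.74 TPM) and ERBB3 (52.4 ± 4.55 TPM) lay under EGFR, with ERBB4 at 4.45 ± 0.417 TPM (SD, n = 3). TERT, the catalytic subunit of telomerase, gave 25, 17 and 6 counts. KIT and PDGFRA stayed at 3 counts or fewer.

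Of 35 tumour suppressors, 30 were expressed (85.7%, beside 60.1% of all protein-coding genes), with a median of 16.3 TPM. Only CDKN1A reached 100 TPM. CDKN1A, which encodes the cyclin-dependent kinase inhibitor p21, gave 643, 746 and 855 TPM, lowest in replicate A and highest in replicate C. In CPM, 18 of the 20 members of the cell cycle list were lowest in replicate C, and a link was not tested. CDKN1B (p27) followed at 99.9 ± 6.60 TPM and KEAP1 at 65.2 ± 2.29 TPM (SD, n = 3).

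CDKN2A, which encodes p16, gave 0, 0 and 2 counts, whereas its neighbour CDKN2B stood at 53.1 ± 8.97 TPM (SD, n = 3). RB1 was at 56.9 ± 8.60 TPM, BRCA1 at 17.2 ± 3.20 TPM and BRCA2 at 12.7 ± 2.53 TPM. CSMD3 and OPCML had no count. A level of RNA does not say whether a gene is intact, and alleles were not analysed here.

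**Figure D4:**
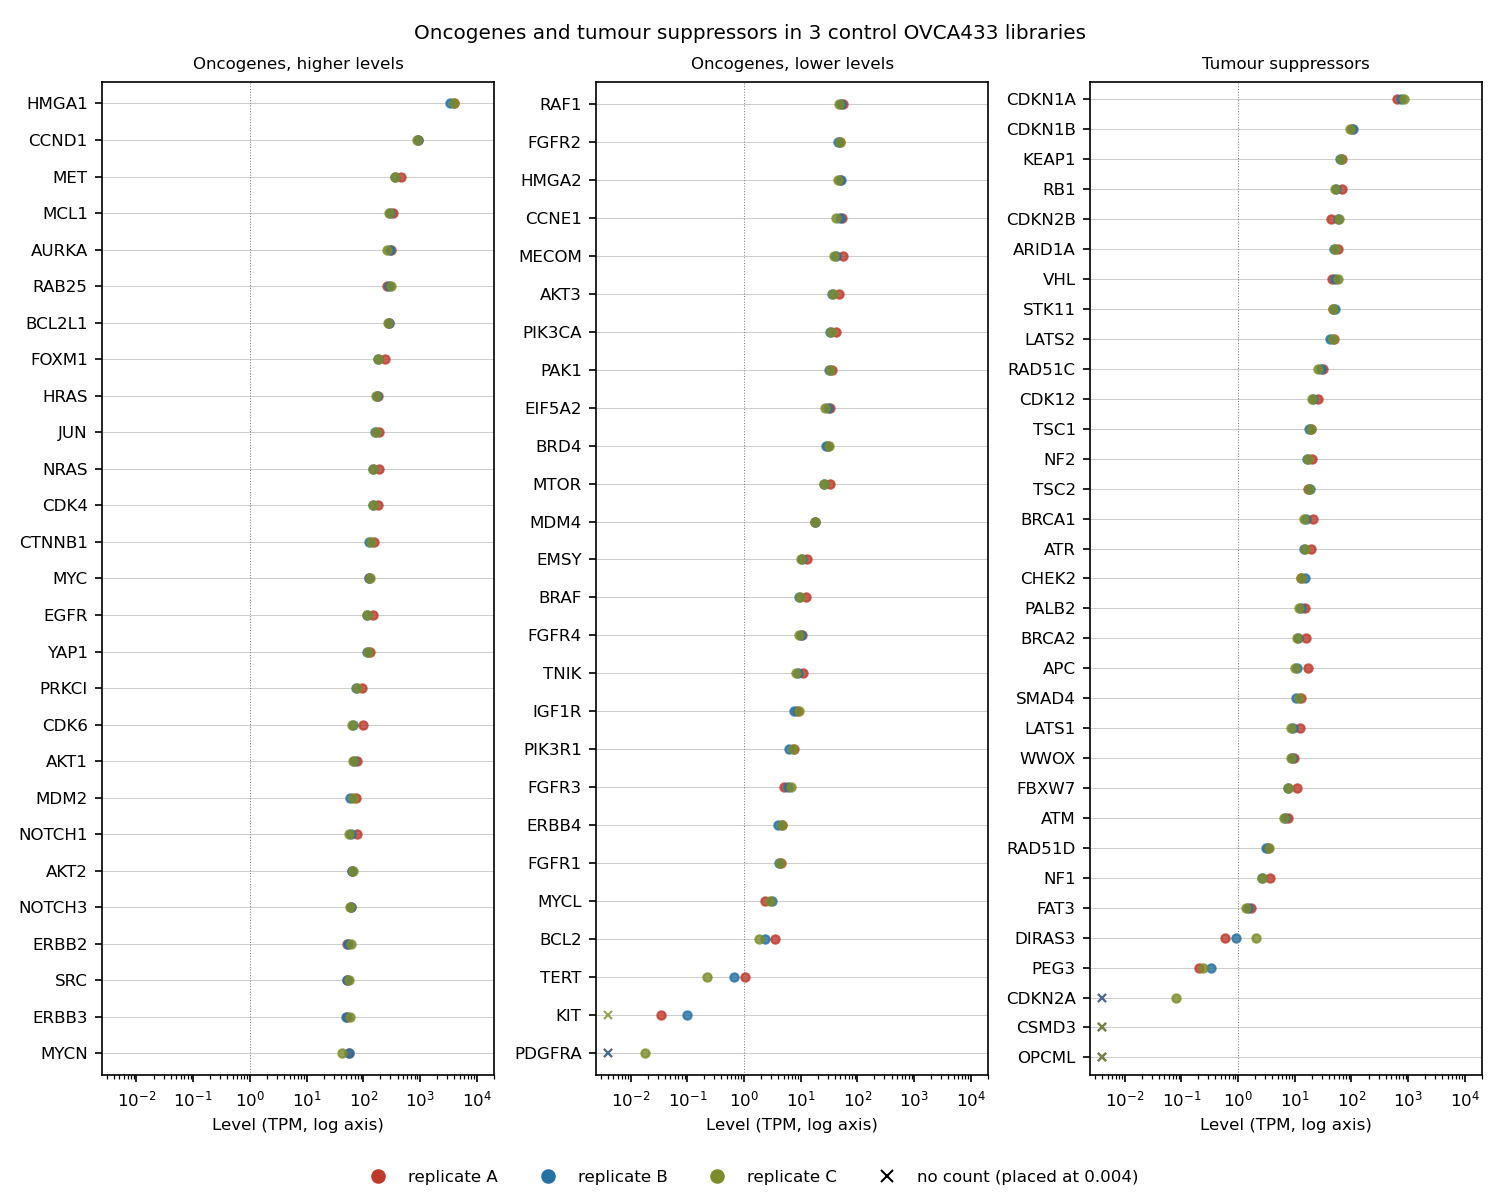
Levels of the oncogenes (left and middle) and tumour suppressors (right) in the 3 control libraries, in TPM on a log axis, with 1 point per library and crosses for libraries without a count. HMGA1 and CCND1 lead the oncogenes, CDKN1A is the single suppressor above 100 TPM, and KIT, PDGFRA, CDKN2A, CSMD3 and OPCML lie at or near no count.

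In the remaining lists, 9 of 15 inflammatory cytokines were expressed (60%, beside 60.1% of all protein-coding genes). They were led by CXCL1, a neutrophil attractant, with 38.7, 176 and 186 TPM, IL18 with 89.4 ± 7.39 TPM and LIF with 86.8 ± 15.1 TPM (SD, n = 3). CCL2 and CSF3 had no count and TNF at most 2. Replicate A was lowest for 8 of the 9 expressed cytokines, beside 36.7% of all expressed genes, with a median difference of -0.54 on the log2(CPM + 0.5) scale from the mean of replicates B and C. Of the interferon and antigen presentation genes, 21 of 22 were expressed (95.5%). The class I genes HLA-C, B2M and HLA-E lay at 313 ± 37.0, 263 ± 34.0 and 224 ± 15.5 TPM (SD, n = 3). The class II gene HLA-DRA was at 2, 3 and 4 counts, although CD74, its chaperone, reached 118 ± 13.5 TPM.

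Glycolytic genes were abundant, with 17 of 18 expressed, beside 60.1% of all protein-coding genes, and a median of 152 TPM. GAPDH stood at 3048 ± 98.3 TPM, ENO1 at 1462 ± 119 TPM and PKM at 1081 ± 34.3 TPM (SD, n = 3). ALDOA was listed at 14, 12 and 19 counts, while 53.5% of its exon length is shared with other annotated genes. Its table length is 157% of the annotated one, and its level is uncertain for both reasons. LDHB was low too, at 1.90 ± 0.442 TPM beside LDHA at 385 ± 32.3 TPM, and 33.4% of the exon length of LDHB is shared with another gene.

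Of the genes used as references in quantitative PCR, all 3 were expressed. TBP, the TATA-binding protein, gave 17.8, 18.6 and 17.8 CPM and did not differ beyond counting error (chi-square test, adjusted p = 0.829). GAPDH gave 2394, 2405 and 2486 CPM and ACTB 6095, 6419 and 6703 CPM. Both were called, with coefficients of variation of 2.02% and 4.74% beyond counting error. Among the relatives of MPZL3, MPZL1 was highest at 110 ± 1.29 TPM, then MPZL2 at 47.5 ± 4.13 TPM (SD, n = 3) and MPZL3 at 15.6, 20.3 and 19.1 TPM. These ranges did not overlap, so the order was the same in every library.

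Of 12 nuclear long noncoding RNAs in the table, 9 were expressed, beside 22.4% of all genes in the table. GAS5 (146 ± 3.88 TPM), SNHG5 (84.7 ± 1.97 TPM) and MALAT1 (77.7 ± 12.6 TPM, SD, n = 3) were the highest, and NEAT1, the scaffold of paraspeckles, stood at 24.8, 33.9 and 36.5 TPM. The imprinted H19 and MEG3 had no count. A poly(A) selection can underrepresent transcripts without a tail, such as mature MALAT1.

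Gene families were also grouped by symbol after the values had been seen. Cytosolic ribosomal protein genes were expressed in 82 of 85 cases and took 4.95% ± 0.290 (SD, n = 3) of the counts. Of 55 keratin genes, 9 were expressed (16.4%, beside 60.1% of all protein-coding genes) and 31 had no count. KRT81, KRT7, KRT8, KRT18 and KRT19 held 97.7% of the summed keratin TPM. Of 24 claudin genes, 8 were expressed (33.3%), with CLDN6, CLDN4, CLDN7, CLDN3 and CLDN1 holding 98.0% of the family.

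Kallikreins (5 of 15 expressed, 33.3%) were dominated by KLK5 and KLK6. Mucins (4 of 15, 26.7%) were led by MUC20 at 35.3 ± 10.8 TPM and MUC4 at 14.4 ± 0.784 TPM (SD, n = 3). Both lay above MUC1 and MUC16. Exons of MUC20 overlap those of another gene for 42.8% of their length, so its level is uncertain. Among matrix and adhesion genes, 8 of 12 laminin subunits, 15 of 26 integrin subunits and 21 of 44 collagens were expressed, or 66.7%, 57.7% and 47.7%, beside 60.1% of all protein-coding genes. ITGA3 led the integrins at 747 ± 30.2 TPM and COL4A2, a collagen of basement membranes, the collagens at 203 ± 9.07 TPM. The table length of COL4A2 is 45.1% of the annotated exon length, so its level and its lead depend on the length used. The same share was 67.3% for SNAI2 and 66.9% for TUG1, and the level of ENO1 also rests on a shorter length than the annotated one. Of 39 HOX genes, 20 were expressed (51.3%), with HOXB7 highest at 101 ± 2.98 TPM. HOXB7, HOXB2, HOXB9, HOXC9 and HOXB4 held 66.0% of the summed HOX TPM.

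Expressed protein-coding genes differed in median level between chromosomes. The median was highest on chromosome 20, at 46.2 TPM over 319 genes, with library medians between 43.9 and 49.1 TPM, followed by chromosome 1 at 32.9 TPM over 1237 genes, with library medians between 31.5 and 34.0 TPM. It was lowest on chromosome 15, at 14.2 TPM over 362 genes, and on chromosome 18, at 15.1 TPM over 162 genes. The library ranges of chromosomes 20 and 1 did not overlap those of chromosomes 15 and 18. Copy number was not analysed here, and its part in these medians was not tested.

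The 3 libraries were alike but not equal. Over the 13128 expressed genes, Pearson's r across genes of log2(CPM + 0.5) was 0.991 for replicates A and B, 0.988 for A and C and 0.995 for B and C, a description, since genes are not independent replicates. Replicates A and C differed by 2-fold or more in 98 genes, A and B in 49 and B and C in 8. The chi-square test called 7905 of 15166 genes with at least 30 counts (52.1%), and the calls grew with the level, from 19.1% of genes between 1 and 3 CPM to 98.9% of 87 genes at 1000 CPM or more.

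The median coefficient of variation beyond counting error was 9.90% for genes between 1 and 3 CPM, highest at 10.9% between 3 and 10 CPM, lowest at 6.80% between 300 and 1000 CPM and 8.53% at 1000 CPM or more. The common biological coefficient of variation from edgeR was 11.7%, beside 14.4% in the shRNA#1 and 12.1% in the shRNA#3 libraries computed the same way. It was 7.07% for replicates B and C alone, 14.9% without replicate B and 12.0% without replicate C.

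Replicate A stood apart from the others most often. Of the 7905 called genes, it was the library farthest from the other 2 in 57.8%, replicate C in 28.2% and replicate B in 14.0%. Without replicate A, the test called 3221 of 14347 genes (22.5%). Replicate A had the lowest mitochondrial share, and longer genes were higher in it. In the longest of 4 equal classes of expressed nuclear protein-coding genes by length (7587 bases or more), 68.2% were higher in replicate A than in the mean of the other 2, with a median difference of 0.12 on the log2 scale. In the shortest class (3407 bases or less), 38.8% were higher, with a median of -0.06. The part of gene length and of the mitochondrial share in the differences between libraries was not tested.

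The 10 genes with the largest spread among the 7816 genes at 20 CPM or more in the mean were all lowest in replicate A. They were chosen for this spread, so their values are a description. ID3 and ID1, inhibitors of basic helix-loop-helix factors and immediate targets of BMP signalling, gave 7.78, 44.5 and 59.9 CPM and 69.6, 298 and 384 CPM in replicates A, B and C. CXCL1 gave 12.9, 62.6 and 65.7 CPM, and LCN2 (lipocalin 2, which binds bacterial siderophores) 79.8, 307 and 278 CPM. The complement component C3 gave 49.7, 151 and 153 CPM, and ZC3H12A, an RNase that degrades cytokine mRNAs, 16.9, 40.4 and 53.3 CPM.

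The protease inhibitor SLPI gave 14.2, 37.8 and 23.3 CPM, the long noncoding RNA UCA1 16.3, 39.4 and 45.0 CPM, and NMNAT2, an enzyme of NAD synthesis, 14.6, 24.9 and 37.0 CPM. Replicate A lay under both other libraries in each of these genes. By the ratio of their CPM, replicates B and C were closest for C3 and farthest apart for SLPI. Just outside the first 10 stood ALDH3B1, with 11.4, 21.4 and 29.4 CPM, whose coefficient of variation beyond counting error was 43.3%, next to 43.4% for the last of the 10.

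**Figure D5:**
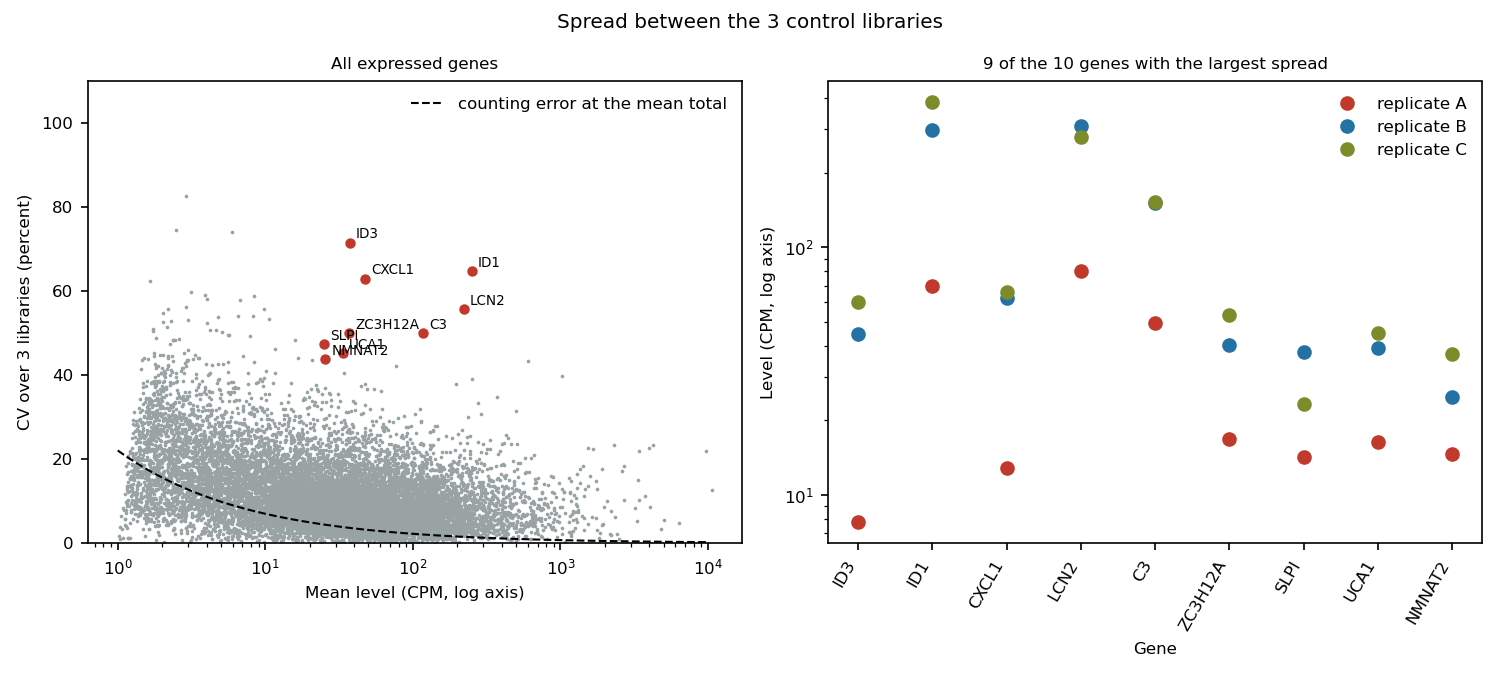
Left, the coefficient of variation over the 3 control libraries in percent against the mean CPM (log axis) for all expressed genes, with the counting error alone as a dashed line and 9 of the 10 genes with the largest spread in red; right, the CPM (log axis) of those 9 genes in each library. Most genes lie above the dashed line in every class of level, with a median coefficient of variation beyond counting error of 6.80% to 10.9%. All 9 genes are lowest in replicate A.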

How the data were processed

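RNA-seq gene counts of 3 control vector OVCA433 libraries were analysed. The deposited values are raw read counts per gene, which the authors made by aligning reads to hg38 with HISAT2 2.0.5 and counting with featureCounts 1.5.0-p3, per the labels. The table also gives a gene length. All count columns belonged to a sample, and columns of the hairpin libraries served only for the MPZL3 check and for the biological coefficient of variation.

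CPM used the library total and TPM the table's gene length, which equals the GENCODE 29 exon length for 92.1% of genes. A length that is not the expressed isoform's shifts a gene's TPM. Genes were expressed at 1 CPM or more in each library. Spread was tested with a chi-square test (2 degrees of freedom, genes with 30 or more counts in sum, Benjamini-Hochberg, adjusted p under 0.05), which takes counting error as the null and compares libraries, not conditions. The biological coefficient of variation came from edgeR 4.0.16 (R 4.3.3) with TMM factors, and DESeq2 1.42.0 gave alternative size factors. Both steps were tested on simulated data. The coefficient of variation beyond counting error was checked there by its root mean square over genes, not by the medians given above. Python 3.11.15 and scipy 1.17.1 were used. Promoter windows were matched by symbol, then by Entrez number through GENCODE 29, and the first listed window was used.

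Named genes were the 5 supplied markers; the first 10 protein-coding genes by CPM and by TPM; per list the 3 highest and up to 3 members at 3 counts or fewer; the 10 genes of largest spread; the leader of each gene type with at least 20 genes; MPZL3, GAPDH, ACTB and TBP; and lineage, oncogene and cyclin members at 100 TPM or more. Other names were chosen after their values were seen. The members, the 21 lists (349 symbols, 347 in the table) and the rules were chosen with earlier results of these data known. Library totals were 19944659 to 21299819 counts, and 3 counts were taken as the floor. Some genes that this rule names are not reported here and are not drawn, and counts and medians of lists include them.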

Additional observations from a re-analysis of the deposited data

How the results depend on the processing

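No paired analysis was possible because only 1 group was analysed. Of 55 alternatives to the main results, 45 stayed within the replicate spread, or within 1.5 times for counts. By TPM in place of counts, the mitochondrial share was 13.6% and the share of the 10 most abundant genes 12.9%, and the latter was 4.98% with mitochondrial genes left out. At 0.5 CPM 62.7% of protein-coding genes were expressed and at 1 TPM 59.7%. Leaving out 1 library gave 60.4% to 60.8% of protein-coding genes expressed, 3221 to 6815 genes with spread beyond counting error and a biological coefficient of variation of 7.07% to 14.9%. The number of expressed genes ran from 13113 to 14409 under all alternatives. For single lists and genes, 159 of 168 alternatives stayed within the same bounds. Exceptions were lists of other cell types with few expressed members, and CCND1 (1039 TPM), EPCAM (695 TPM), CDH1 (194 TPM) and HMGA1 (4343 TPM) with mitochondrial genes left out of the totals. The exon length of GENCODE 29 in place of the table's length and all promoter windows in place of the first were added after seeing the data and gave 1726 genes at 100 TPM, beside 1738, and TATAAA in 5.50% of windows. Without replicate A the number of genes with spread was 3221 and the biological coefficient of variation 7.07%, beside 7905 and 11.7%, and the cause was not tested. Depth limits statements on genes at or near 3 counts.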
